A study of Mus musculus with 208 samples.

Results

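The morphine by LPS interaction in the hypothalamus is the difference between 2 responses to lipopolysaccharide (LPS), the bacterial cell wall component that triggers innate immunity: the response of mice exposed to morphine around birth, MOR–LPS minus MOR–SAL, less the response of mice exposed to saline, SAL–LPS minus SAL–SAL. It was measured in nuclear RNA of NeuN+ (neuronal) nuclei, in every hypothalamic library whose total count was at least 0.5 times the median total, which kept 48 of 51 hypothalamic libraries among the 208 samples of the series. Wild-type C57BL/6NTac dams carried osmotic minipumps that delivered saline or morphine (10 mg/kg each day) during gestation, and their pups were injected under the skin every morning and evening with saline or morphine (10 mg/kg) from postnatal day 1 to day 14, while reared by drug-naive foster dams. As adults the offspring were given LPS (2 mg/kg) or saline intraperitoneally, and tissue was taken 2 h later. The 4 groups were SAL–SAL (9 libraries, 4 female and 5 male, from 7 litters), SAL–LPS (11 libraries, 7 female and 4 male, 6 litters), MOR–SAL (14 libraries, 7 female and 7 male, 10 litters) and MOR–LPS (14 libraries, 7 female and 7 male, 9 litters). A positive interaction means that the response to LPS was more positive, or less negative, after morphine than after saline, and the question is whether early opioid exposure changes how adult hypothalamic neurons respond to an immune challenge.

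Each library is 1 animal, about 5000 sorted nuclei from adjacent punches, and is named here by its litter and animal number (10-1 is animal 1 of litter 10). A litter had 1 exposure, so litter and exposure cannot be told apart, but most litters gave animals to both challenges, and a fit with litter in place of sex compares LPS with saline within litters. Total counts ran from 3036876 to 35077048 reads on genes (median 5615791), so that 3 counts, taken as the limit of what a count of 0 allows, correspond to 0.0855 CPM in the deepest and 0.988 CPM in the shallowest library. These limits cover counting error only. Values of single libraries below are given as CPM (reads of a gene relative to the TMM-normalized total of a library), and differences between groups are log2 fold changes (log2FC) ± SE.

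LPS is sensed by Toll-like receptor 4 and acts through the transcription factor NF-kB, which induces cytokines and its own inhibitor, IκBα. Interleukins and prostaglandins carry the signal to the hypothalamus, which answers with fever, loss of appetite and activation of the stress axis, and the glucocorticoids released then induce target genes through the glucocorticoid receptor in neurons and glia alike. Opioid receptors and their peptides are abundant in the hypothalamus, where they act on feeding, hormone release and stress responses.

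The libraries differed in markers of other tissue and cells, and these values bear on what follows. Over 15 thalamic marker genes the mean log2 CPM of a library (lowest, median and highest) was 2.75, 5.43 and 7.09 in SAL–SAL, 2.10, 3.47 and 5.26 in SAL–LPS, 1.23, 3.36 and 5.72 in MOR–SAL and 0.43, 3.67 and 4.73 in MOR–LPS. SAL–SAL libraries 10-1 and 10-3 were the highest of all, and 10-3 was also the lowest SAL–SAL library for hypothalamic transcription factors (−1.89). The lowest libraries of the other groups were near it: 1-0 in SAL–LPS (−1.64), 16-1 in MOR–SAL (−1.53) and 14-4 in MOR–LPS (−1.54). Over 9 oligodendrocyte markers the same values were 1.30, 3.66 and 8.21 in SAL–SAL, 2.80, 3.80 and 7.08 in SAL–LPS, 1.74, 4.00 and 4.28 in MOR–SAL and 1.83, 4.69 and 8.10 in MOR–LPS. Over 9 astrocyte markers they were −0.83, 1.81 and 5.56 in SAL–SAL, 0.36, 2.44 and 5.57 in SAL–LPS, 0.44, 1.69 and 2.52 in MOR–SAL and 0.24, 4.10 and 6.99 in MOR–LPS. Oligodendrocyte markers were above 4.8 in 12 libraries, of which 7 were MOR–LPS, 3 SAL–LPS, 2 SAL–SAL and 0 MOR–SAL. Without these 12, MOR–LPS kept 7 libraries: the males 6-0, 6-2, 8-3, 13-2, 14-0 and 17-1 and the female 18-1. In that fit the loss of high glial markers and the loss of MOR–LPS females cannot be told apart. All 9 neuronal markers were well covered, with library means from 6.96 to 8.75. The lowest, median and highest values over 5 markers of cortical and hippocampal glutamatergic neurons were −0.27, 1.11 and 2.49 in SAL–SAL and −0.50, 0.23 and 4.13 in SAL–LPS. They were −0.51, 1.05 and 1.78 in MOR–SAL and 0.55, 2.41 and 5.65 in MOR–LPS. The neuron gate should remove glia, but glial transcripts were present and high in MOR–LPS. Thalamic transcripts were high in SAL–SAL, and cortical ones in MOR–LPS. Results are therefore given with the call without libraries 10-1 and 10-3, or without the 12 libraries, where it was lost.

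In 4 libraries labelled female the sex-linked transcripts departed from the label. MOR–LPS 18-1 had 0.515 CPM of Xist, the RNA that coats the inactive X chromosome, and 0.258 CPM summed over 4 Y-linked genes, and also the fewest genes detected of all 48 libraries (13712). SAL–LPS 10-0, MOR–SAL 15-0 and MOR–SAL 12-1 had Xist at 498, 738 and 777 CPM together with 97.9, 81 and 33 CPM of the Y-linked genes. Without these 4 libraries, a choice made after seeing the data, 480 genes at 1 CPM or more were called (384 positive and 96 negative, 363 of them also called with all libraries). Of the 44 called genes named below, 8 lost the call there: Penk (log2FC −1.14, adjusted p = 0.186), Serpina9 (−4.12, 0.109), Zbtb16 (1.67, 0.0509), Nfkbia (1.56, 0.0591), Hcrtr2 (−1.81, 0.0538), Gabrg3 (−0.96, 0.0599), Slc17a7 (3.91, 0.0537) and Fgfr3 (2.49, 0.0593).

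**Figure D1:**
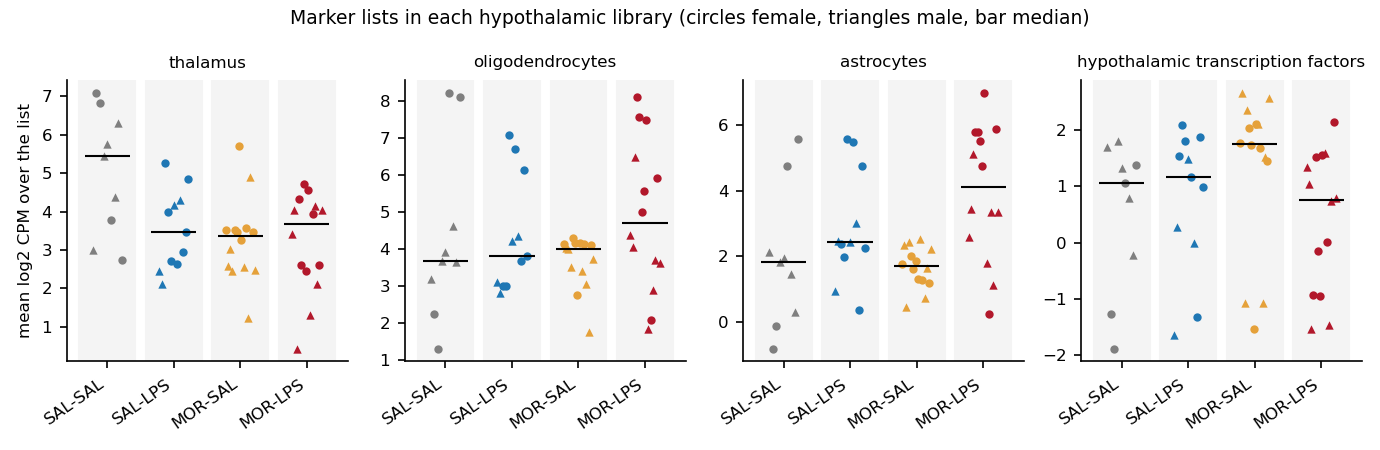
Mean log2 CPM of marker genes in each of the 48 hypothalamic libraries, by group, with the group median as a bar. Thalamic markers reached 7.09 in SAL–SAL, and the highest oligodendrocyte values were 8.21 in SAL–SAL and 8.10 in MOR–LPS against 4.28 in MOR–SAL.

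Across the hypothalamus, 442 of 18703 genes with a mean of at least 1 CPM had a called interaction (2.36%, adjusted p under 0.05 in edgeR's quasi-likelihood test with Benjamini-Hochberg adjustment over all 28841 genes tested). The interaction was positive for 351 of them (1.88% of 18703) and negative for 91 (0.487%). In limma-voom with a litter correlation the balance turned, with 42 positive and 60 negative among 102 called. Over all genes tested 1108 were called (3.84%), but 60.1% of these were below 1 CPM and are not described. For comparison, 13.6% of genes at 1 CPM or more had an unadjusted p under 0.05, and the median interaction log2FC over them was −0.02.

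The components of the interaction, which is made from the same libraries, are given side by side. Among the 351 genes the median LPS log2FC was −0.76 after saline and 0.94 after morphine. For 333 of these the response was negative after saline and positive after morphine, for 12 it was positive in both and for 6 negative in both. Among the 91 genes the medians were 0.52 after saline and −0.64 after morphine, and all 91 had a positive response after saline and a negative one after morphine. These signs are those of the point estimates. By the test of each response alone, among all 18703 genes, LPS after saline raised 9 (0.0481%) and lowered 66 (0.353%), and LPS after morphine raised 752 (4.02%) and lowered 325 (1.74%).

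**Figure D2:**
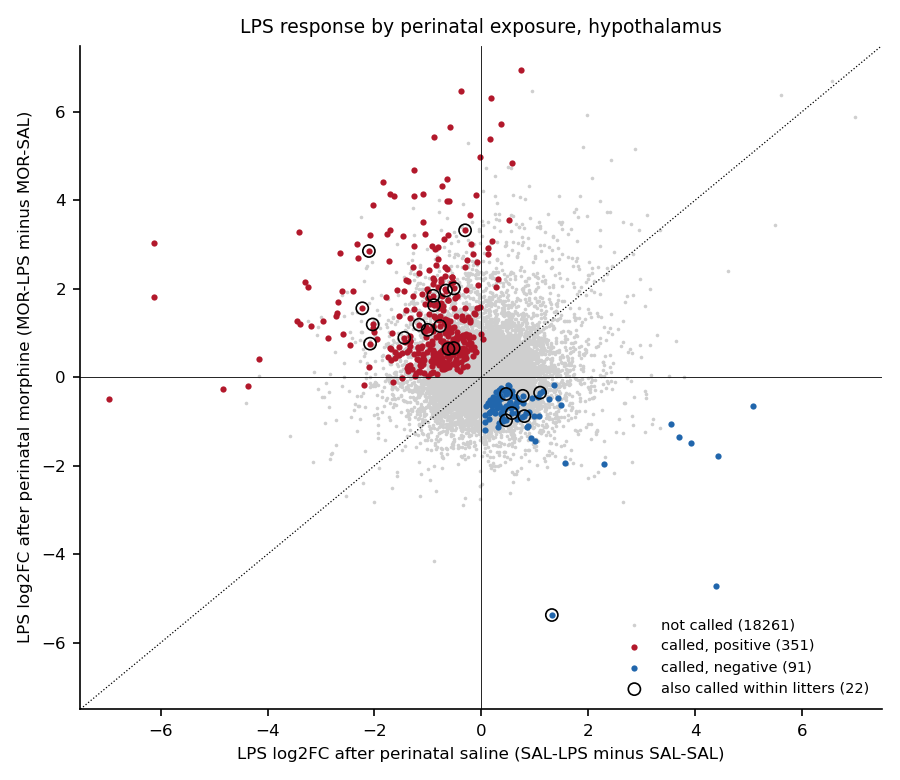
LPS log2FC after perinatal morphine (vertical) against that after perinatal saline (horizontal) for each gene with a mean of at least 1 CPM, with the called genes coloured by the sign of the interaction. The 351 genes with a positive interaction lie mostly in the upper left and the 91 with a negative one in the lower right, and 1 gene lies outside the axes.

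Estimated within litters, 22 of 18703 genes had a called interaction (0.118%), and all 22 were among the 442. They include a glutamate transporter, a sorting receptor, an interleukin receptor chain and a lysine methyltransferase, and their values are described first. Positions are those of GENCODE M21 on GRCm38. Some genes share exonic sequence with an antisense partner, whose reads cannot be told apart from theirs, which among the called genes described below holds, beside those marked there, for Gabra4 (with Gabrb1), Penk, Grin2c, Grin2b, Syt6, Fndc3a, Fgfr3 and Enpp2.

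Slc1a2 (chr2:102658659-102790784, plus strand), the glutamate transporter GLT-1 that clears glutamate from synapses and is made mainly by astrocytes, had the smallest p of all genes. For Slc1a2 the values ran (lowest, median, highest) 66.1, 243 and 461 CPM in SAL–SAL, 77.8, 176 and 259.6 in SAL–LPS, 60.5, 84.9 and 181 in MOR–SAL and 84.9, 306 and 834 in MOR–LPS. MOR–LPS exceeded the MOR–SAL median in 14 of 14 libraries, while 10 of 11 SAL–LPS libraries were below the SAL–SAL median, although the groups overlapped. The LPS log2FC was −0.66 ± 0.28 after saline and 1.96 ± 0.24 after morphine (interaction log2FC 2.62 ± 0.37, adjusted p = 4.84e-05, and 0.00152 within litters). It kept the call without the 12 libraries of high oligodendrocyte markers (log2FC 1.96, adjusted p = 0.00825). Exons of Gm13872 on the opposite strand overlap it, and reads from the pair cannot be told apart because the strand setting of the counting is not given in the sources used here.

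Bmp1 (chr14:70474558-70520234, minus strand) encodes a metalloprotease that cleaves procollagens. Levels of Bmp1, again as lowest, median and highest, were 29, 109.8 and 237 CPM in SAL–SAL, 16, 55.6 and 134 in SAL–LPS, 13.9, 32.2 and 58.8 in MOR–SAL and 25.1, 79.9 and 245 in MOR–LPS. In 13 of 14 MOR–LPS libraries it was above the MOR–SAL median, and in 10 of 11 SAL–LPS libraries below the SAL–SAL median. The responses were −0.88 ± 0.33 after saline and 1.63 ± 0.29 after morphine (interaction log2FC 2.51 ± 0.43, adjusted p = 0.00124, and 0.00152 within litters). Map7d1 (chr4:126232167-126256343, minus strand) encodes a microtubule-associated protein. Map7d1 measured 84.6, 125 and 191 CPM (lowest, median, highest) in SAL–SAL, 34.1, 101 and 111 in SAL–LPS, 45.8, 59.6 and 109 in MOR–SAL and 86.9, 97.3 and 129 in MOR–LPS. Here all 14 MOR–LPS libraries were above the MOR–SAL median and all 11 SAL–LPS libraries below the SAL–SAL median. Its LPS log2FC was −0.52 ± 0.17 after saline and 0.66 ± 0.14 after morphine (interaction log2FC 1.18 ± 0.22, adjusted p = 0.00281, and 0.00152 within litters).

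Il1rap (chr16:26581704-26730117, plus strand) encodes the accessory chain that the interleukin-1 receptor needs to signal. Il1rap had lowest, median and highest values of 36.5, 97.7 and 434 CPM in SAL–SAL, 21.8, 62.9 and 130.0 in SAL–LPS, 35.6, 49.4 and 88.3 in MOR–SAL and 46.8, 87.8 and 297 in MOR–LPS. The highest SAL–SAL value was library 10-1, and 12 of 14 MOR–LPS libraries were above the MOR–SAL median. Its response was −1.003 ± 0.29 after saline and 1.07 ± 0.24 after morphine (interaction log2FC 2.08 ± 0.38, adjusted p = 0.00194, and 0.0268 within litters). Sort1 (chr3:108284082-108361511, plus strand) encodes sortilin, a receptor that sorts proteins between the Golgi, endosomes and the cell surface. For Sort1 the values ran (lowest, median, highest) 119.8, 196 and 258 CPM in SAL–SAL, 69.9, 139.8 and 175 in SAL–LPS, 108, 134 and 188 in MOR–SAL and 117, 205 and 398 in MOR–LPS. Every SAL–LPS library (11 of 11) was under the SAL–SAL median and 11 of 14 MOR–LPS libraries above the MOR–SAL median. The LPS log2FC was −0.61 ± 0.17 after saline and 0.64 ± 0.15 after morphine (interaction log2FC 1.26 ± 0.23, adjusted p = 0.00194, and 0.0291 within litters). Il1rap and Sort1 each overlap an opposite-strand gene (Gm20319 and Gm12523), and their reads cannot be told apart.

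Car4 (chr11:84957786-84966044, plus strand), a membrane-anchored carbonic anhydrase, had one of the larger differences but low levels. Levels of Car4, again as lowest, median and highest, were 1.54, 22.4 and 107 CPM in SAL–SAL, 0, 4.01 and 39.5 in SAL–LPS, 0, 1.94 and 6.75 in MOR–SAL and 0, 8.2 and 76.9 in MOR–LPS. It was at 0 in 1 SAL–LPS, 2 MOR–SAL and 1 MOR–LPS libraries, and 13 of 14 MOR–LPS libraries were above the MOR–SAL median (interaction log2FC 4.96 ± 0.89, adjusted p = 0.00194, and 0.00951 within litters). Fgd6 (chr10:94036001-94145339, plus strand), a guanine nucleotide exchange factor, was below the SAL–SAL median in all 11 SAL–LPS libraries. Fgd6 measured 4.5, 18 and 62.6 CPM (lowest, median, highest) in SAL–SAL, 0, 6.18 and 16.2 in SAL–LPS, 2.72, 5.26 and 9.94 in MOR–SAL and 3.01, 13.6 and 33.4 in MOR–LPS. The responses were −2.03 ± 0.42 after saline and 1.19 ± 0.35 after morphine (interaction log2FC 3.23 ± 0.54, adjusted p = 0.00117, and 0.0137 within litters). Clmn (chr12:104763117-104865076, minus strand), which encodes the actin-binding protein calmin, and Arap2 (chr5:62602445-62766159, minus strand), an Arf GTPase-activating protein, had their highest median in SAL–SAL and their lowest in MOR–SAL. Clmn had a median of 206 CPM in SAL–SAL, 118 in SAL–LPS, 54.3 in MOR–SAL and 102 in MOR–LPS (interaction log2FC 2.33 ± 0.39, adjusted p = 0.00117, and 0.00152 within litters). The Arap2 medians were 58.5, 34, 16 and 46.2 CPM (interaction log2FC 2.74 ± 0.47, adjusted p = 0.00117, and 0.0268 within litters). Library 10-1 was the highest SAL–SAL library for Car4, Fgd6, Clmn and Arap2. Without 10-1 and 10-3 these 4 genes kept their calls, with log2FC of 4.26, 2.75, 1.76 and 2.18.

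**Figure D3:**
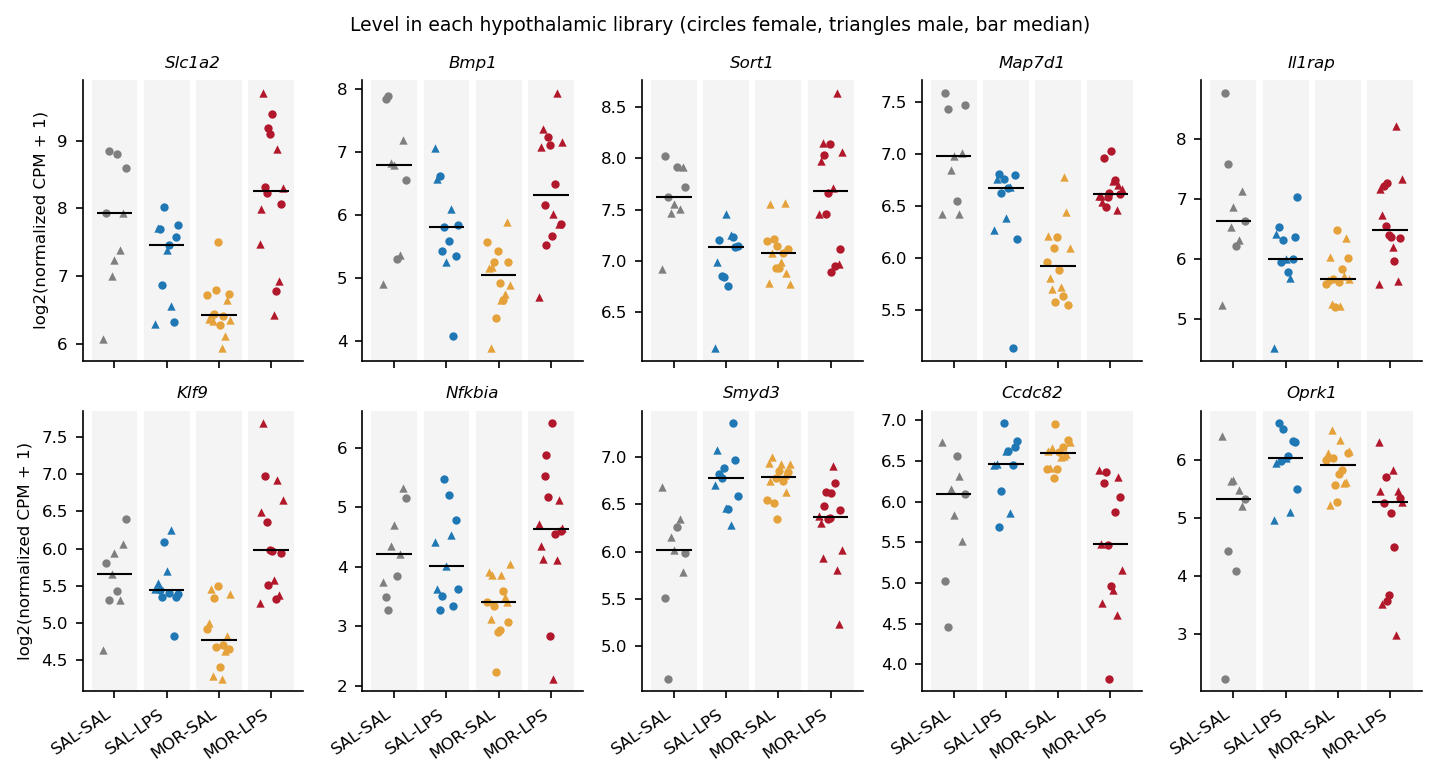
Normalized CPM of 10 genes in each hypothalamic library on a log axis, by group, with group medians as bars. Slc1a2 medians were 84.9 in MOR–SAL and 306 in MOR–LPS, and all 14 MOR–LPS libraries lay below the MOR–SAL median for Ccdc82.

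Among genes with a negative interaction, Smyd3 (chr1:178951960-179518041, minus strand), a lysine methyltransferase, had the smallest p. Smyd3 had lowest, median and highest values of 24.1, 63.5 and 102 CPM in SAL–SAL, 77, 109 and 163 in SAL–LPS, 80.4, 109.8 and 127 in MOR–SAL and 36.5, 81.4 and 119 in MOR–LPS. All 11 SAL–LPS libraries were above the SAL–SAL median and 13 of 14 MOR–LPS libraries below the MOR–SAL median. Its LPS log2FC was 0.78 ± 0.18 after saline and −0.42 ± 0.14 after morphine (interaction log2FC −1.20 ± 0.23, adjusted p = 0.00345, and 0.00951 within litters). Ccdc82 (chr9:13246955-13292520, plus strand) showed the change mainly after morphine. For Ccdc82 the values ran (lowest, median, highest) 21.1, 67 and 106 CPM in SAL–SAL, 50.5, 87.5 and 124 in SAL–LPS, 77.6, 96 and 124 in MOR–SAL and 13.1, 43.4 and 82.6 in MOR–LPS. All 14 MOR–LPS libraries were below the MOR–SAL median, against 9 of 11 SAL–LPS libraries above the SAL–SAL median, and the responses were 0.47 ± 0.24 after saline and −0.97 ± 0.20 after morphine (interaction log2FC −1.44 ± 0.31, adjusted p = 0.0085, and 0.0139 within litters).

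Other genes with a negative interaction held the call across animals but not within litters. Among them were Syt6, a synaptotagmin (interaction log2FC −2.13 ± 0.45, adjusted p = 0.0085, and 0.0795 within litters), Dsel, an epimerase-like enzyme of dermatan sulfate synthesis (interaction log2FC −1.09 ± 0.24, adjusted p = 0.00873, and 0.16 within litters), Rgs9, a regulator of G-protein signalling (interaction log2FC −1.97 ± 0.44, adjusted p = 0.00923, and 0.0886 within litters), Adam4, a metalloprotease-family gene (interaction log2FC −1.26 ± 0.29, adjusted p = 0.0103, and 0.133 within litters), the kainate receptor subunit Grik3 (interaction log2FC −0.89 ± 0.21, adjusted p = 0.0106, and 0.24 within litters) and Fndc3a (interaction log2FC −0.95 ± 0.22, adjusted p = 0.0106, and 0.0765 within litters). For Dsel, Rgs9, Adam4 and Fndc3a all 14 MOR–LPS libraries were below the MOR–SAL median. Levels of Dsel, again as lowest, median and highest, were 28.1, 36.5 and 47 CPM in SAL–SAL, 26.1, 43.5 and 56.3 in SAL–LPS, 21.3, 56.1 and 84.8 in MOR–SAL and 17.3, 29.4 and 40.3 in MOR–LPS. Rgs9 measured 16.2, 72 and 136 CPM (lowest, median, highest) in SAL–SAL, 26, 125 and 529.7 in SAL–LPS, 69.4, 146 and 289 in MOR–SAL and 30.5, 60.6 and 117 in MOR–LPS. The SAL–LPS range of Rgs9 was the widest, reaching 529.7 CPM in library 10-0. Leaving out litter 10 ended the calls of Rgs9 (adjusted p = 0.0682) and Fndc3a (0.0706), and leaving out the 12 libraries with high oligodendrocyte markers ended those of Rgs9 (log2FC −1.74, 0.0948) and Grik3 (log2FC −0.83, 0.0782), with values close to those over all libraries.

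Some of the largest fitted values came from genes at 0 in many libraries of at least 1 group, where the fit sets no bound on the fold, so levels are given in place of folds. Slc6a5, the glycine transporter GlyT2 of glycinergic neurons, was at 0 in 6 of 11 SAL–LPS, 8 of 14 MOR–SAL and 10 of 14 MOR–LPS libraries and reached 384 CPM in SAL–LPS library 1-0 (adjusted p = 0.00585, and 0.469 within litters). The pseudogene Gm12129 was at 0 in 13 of 14 MOR–LPS libraries against 1 of 14 MOR–SAL libraries, where its median was 1.66 CPM (adjusted p = 0.00585, and 0.0268 within litters). Gm14342 (adjusted p = 0.00931, 0.0886 within litters) was at 0 in 7 of 9 SAL–SAL libraries, and Serpina9 (0.0106, 0.203 within litters) in 6 of 9. Of positive sign, Ttr, the thyroid hormone carrier made by the choroid plexus, reached 223 CPM in SAL–SAL library 4-1 while its medians were 3.71, 0.399, 0.785 and 0.313 CPM in SAL–SAL, SAL–LPS, MOR–SAL and MOR–LPS (adjusted p = 0.00124, and 0.0886 within litters). Ttr was not called without the 12 libraries of high oligodendrocyte markers (adjusted p = 0.071). The noncoding Gm26512, whose exons overlap those of Dio2 on the other strand, was at 0 in 1 of 9 SAL–SAL, 10 of 11 SAL–LPS, 9 of 14 MOR–SAL and 9 of 14 MOR–LPS libraries (adjusted p = 0.00194, and 0.0886 within litters).

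Among the 12 genes with the smallest p and a positive interaction, Fryl had the smallest LPS response after morphine. Fryl had lowest, median and highest values of 154, 393 and 1651 CPM in SAL–SAL, 174, 208 and 408 in SAL–LPS, 152, 199 and 248 in MOR–SAL and 172, 217 and 422 in MOR–LPS. Its LPS log2FC was −1.38 ± 0.23 after saline and 0.22 ± 0.19 after morphine (interaction log2FC 1.60 ± 0.30, adjusted p = 0.0032, and 0.0721 within litters). The SAL–SAL maximum was library 10-1, and without 10-1 and 10-3 the interaction was 0.91 (adjusted p = 0.0319). Of the 22 genes called within litters, the other 8 named here were chosen after their values were seen. Abca1, which exports cholesterol from cells (2.52 ± 0.49, adjusted p = 0.00382, 0.0381 within litters), Ccdc141 (2.84 ± 0.55), Pex5l (1.93 ± 0.40), which binds HCN channels, and A330015K06Rik (2.35 ± 0.47) were positive. The calcium/calmodulin-dependent kinase Camk1g (−1.45 ± 0.34), the cytoskeletal Epb4.1l1 (−0.84 ± 0.20), 5530401A14Rik (−1.68 ± 0.42) and the cadherin Cdh18 (−1.38 ± 0.35) were negative. With thalamic and oligodendrocyte marker levels as covariates, Ccdc141 (log2FC 1.86, adjusted p = 0.0817), Camk1g (−0.97, 0.0884), Cdh18 (−1.22, 0.0681) and 5530401A14Rik (−0.89, 0.245) were not called.

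The lists of genes that follow are read against the shares called among all genes, 1.88% positive and 0.487% negative. Of 23 receptors and signalling genes of cytokines and prostaglandins, Il1rap and Il6ra had a called interaction and the other 21 did not (list median 0.11, against −0.02 over all genes). Il6ra encodes the ligand-binding chain of the interleukin-6 receptor. For Il6ra the values ran (lowest, median, highest) 0, 2.78 and 6.52 CPM in SAL–SAL, 0, 1.14 and 3.65 in SAL–LPS, 0, 0.192 and 0.932 in MOR–SAL and 0, 4.53 and 28.9 in MOR–LPS. It was above the MOR–SAL median in 13 of 14 MOR–LPS libraries and at 0 in 4 SAL–LPS and 4 MOR–SAL libraries, so that its log2FC rests on few reads (interaction log2FC 5.73 ± 1.14, adjusted p = 0.00559, and 0.0543 within litters). Exons of Gm42809 overlap it on the opposite strand. Neither partner chain was called: the interaction was 3.07 ± 1.11 (adjusted p = 0.108) for Il1r1, the ligand-binding chain of the interleukin-1 receptor, and −0.22 ± 0.24 (adjusted p = 0.768) for Il6st, the signal-transducing chain gp130. Tlr4, the LPS receptor, had a mean of 0.254 CPM and is not described.

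Of 16 genes of the NF-kB and acute inflammatory response with a mean of at least 1 CPM, Nfkbia, the gene of IκBα, was called and 15 were not (list median 0.81, 13 positive and 3 negative). Levels of Nfkbia, again as lowest, median and highest, were 8.71, 17.5 and 39.4 CPM in SAL–SAL, 8.63, 15.1 and 43.8 in SAL–LPS, 3.66, 9.58 and 15.5 in MOR–SAL and 3.34, 23.8 and 84.4 in MOR–LPS. The LPS log2FC was −0.07 ± 0.36 after saline and 1.56 ± 0.31 after morphine, and 12 of 14 MOR–LPS libraries were above the MOR–SAL median (interaction log2FC 1.63 ± 0.47, adjusted p = 0.0319, and 0.422 within litters). The call was also lost without any 1 of the libraries 5-3 (log2FC 1.43, adjusted p = 0.0761), 9-4 (1.49, 0.065), 4-4 (1.55, 0.0509), 15-3 (1.51, 0.0507) and 16-4 (1.40, 0.0664), and without the 12 libraries of high oligodendrocyte markers (1.20, 0.142). Lcn2, the acute-phase gene lipocalin 2, named after its values were seen, was the member raised by LPS in both exposures: log2FC 5.60 after saline (adjusted p = 0.0321) and 6.39 after morphine (0.000171), with an interaction of 0.79 ± 2.44 (adjusted p = 0.968). Il6 was listed at 0 in all libraries, and Cxcl1 was called but had a mean of 0.185 CPM.

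The promoter of Nfkbia is shown because this gene carries the list's call and is a textbook NF-kB target. The 30 bases at chr12:55492657-55492686, minus strand, 29 bases before the start, read 5′ to 3′ from RefSeq's GRCm38.p6, hold the NF-kB motif, GGGA and TTTCC with any base between them, searched on both strands and found here on the opposite strand (in capitals).
Nfkbia: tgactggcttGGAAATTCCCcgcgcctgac
The motif was in a promoter of 2 of the 11 list genes with a mean of at least 1 CPM and a promoter sequence (Nfkb2 and Nfkbia). It was in 0.411% of all 32851 promoters of 300 bases, from genes at any level. The first share counts genes and the other promoters. The motif is a match of letters and was not tested for binding.

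Interferon response and antigen presentation genes had 0 calls among 18 in edgeR and 0 in DESeq2, with 2 at an unadjusted p under 0.05 (list median 0.16). The values with the smallest p were 2.68 ± 0.95 for H2-K1, an MHC class I heavy chain (adjusted p = 0.0981), and 1.35 ± 0.66 for Ifi27 (0.288). For H2-K1, 13 of 14 MOR–LPS libraries were above the MOR–SAL median and the LPS log2FC was 0.71 ± 0.73 after saline and 3.39 ± 0.65 after morphine.

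Glucocorticoid-induced genes were positive for 17 of 17 members, with a median interaction of 1.44 against −0.02 over all genes, and 4 of 17 were called (1.88% of all genes were called positive): Klf9, Ddit4, Hif3a and Zbtb16. After morphine, LPS raised 13 of the 17 (median log2FC 1.54, against a background of 4.02% of genes), and after saline 0 of 17 were called (median 0.19). Within litters 0 of the 17 interactions were called and the list median was 1.08.

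Klf9, a Krüppel-like transcription factor, was the clearest member. Klf9 measured 23.9, 49.3 and 83.5 CPM (lowest, median, highest) in SAL–SAL, 27.4, 42.4 and 74.8 in SAL–LPS, 18.1, 26.3 and 44.3 in MOR–SAL and 37.6, 62 and 204 in MOR–LPS. All 14 MOR–LPS libraries were above the MOR–SAL median and 8 of 11 SAL–LPS libraries below the SAL–SAL median. The responses were −0.11 ± 0.24 after saline and 1.43 ± 0.21 after morphine (interaction log2FC 1.53 ± 0.31, adjusted p = 0.00613, and 0.0663 within litters). Zbtb16, a zinc finger transcription factor, was above its controls after both exposures: all 11 SAL–LPS libraries were above the SAL–SAL median and 12 of 14 MOR–LPS libraries above the MOR–SAL median. Zbtb16 had lowest, median and highest values of 13.7, 19.2 and 72.8 CPM in SAL–SAL, 19.5, 29.6 and 53.6 in SAL–LPS, 5.29, 16.7 and 60.1 in MOR–SAL and 11.9, 59.5 and 216 in MOR–LPS. Its LPS log2FC was 0.27 ± 0.39 after saline and 2.05 ± 0.34 after morphine (interaction log2FC 1.77 ± 0.51, adjusted p = 0.0319, and 0.257 within litters).

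Hif3a, a member of the hypoxia-inducible factor family, and Ddit4, an inhibitor of mTORC1, had wide ranges and their highest medians in MOR–LPS. Hif3a was above the SAL–SAL median in all 11 SAL–LPS libraries and above the MOR–SAL median in 13 of 14 MOR–LPS libraries. The counts for Ddit4 were 5 of 11 and 11 of 14. For Hif3a the values ran (lowest, median, highest) 1.09, 3.09 and 73.4 CPM in SAL–SAL, 5.18, 8.13 and 51.1 in SAL–LPS, 0.422, 2.34 and 7.54 in MOR–SAL and 2.12, 22.6 and 106 in MOR–LPS. Levels of Ddit4, again as lowest, median and highest, were 3.31, 5.01 and 36.3 CPM in SAL–SAL, 2.75, 4.21 and 16.4 in SAL–LPS, 1.22, 5.04 and 10.4 in MOR–SAL and 2.12, 14.6 and 42.7 in MOR–LPS. The interaction was 2.89 ± 0.76 for Hif3a (adjusted p = 0.0206, and 0.322 within litters) and 2.34 ± 0.58 for Ddit4 (0.0146, and 0.228 within litters). SAL–SAL library 4-1 was the highest of its group for Ddit4, Hif3a and Zbtb16. Without it their log2FC were 1.77, 2.32 and 1.36, with adjusted p of 0.056, 0.0623 and 0.109. Hif3a also lost its call without library 14-4 (0.0501), and Zbtb16 without 6-0 (0.0551), 14-4 (0.0504) or 16-2 (0.056).

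These values were lower in fits that left out or adjusted for high glial markers. When the libraries were left out, 18-1 was the only female MOR–LPS library. Without the 12 libraries of high oligodendrocyte markers, 0 of 17 glucocorticoid genes were called and the list median was −0.04, with Klf9 at 1.14 (adjusted p = 0.0691), Ddit4 at 0.90 (0.542), Hif3a at 0.72 (0.695) and Zbtb16 at 0.52 (0.71). With the oligodendrocyte marker level as a covariate 2 were called, and the median was 0.66. In a bulk sample, a different number of cells of a type and a different amount of RNA per cell cannot be told apart.

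The glucocorticoid response element was looked for in promoters on both strands as G, any base, ACA, 3 of any base, TGT, any base and C. It was in a promoter of 3 of the 15 list genes with a mean of at least 1 CPM and a promoter sequence (Map3k6, Mt1 and Sgk1). Of all 32851 promoters, from genes at any level, 0.475% held it, a share of promoters and not of genes. Sgk1, a kinase induced by glucocorticoids, and the metallothionein Mt1 are shown, since each rose after LPS in morphine-exposed mice. The windows are chr10:21993694-21993723, plus strand, 188 bases before the start of Sgk1, and chr8:94178987-94179016, plus strand, 94 bases before that of Mt1 (RefSeq, GRCm38.p6), with the motif in capitals.
Sgk1: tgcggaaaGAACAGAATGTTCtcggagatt
Mt1: cactatagGGACATGATGTTCcacacgtca
The LPS log2FC of Sgk1 was −0.03 after saline (adjusted p = 1) and 1.54 after morphine (0.00736), with an interaction of 1.57 ± 0.54 (adjusted p = 0.0848). For Mt1 it was 1.04 (0.445) and 2.28 (0.00496), with an interaction of 1.24 ± 0.76 (adjusted p = 0.447). Neither interaction was called, and both genes were named after their values were seen.

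Opioid receptors and peptide precursors were negative for 8 of 8 genes (median −1.32 against −0.02 over all genes), and 2 of the 8 were called, where 2.36% of all genes were: Oprk1, the kappa receptor, and Penk, the precursor of enkephalins. Oprk1 measured 3.68, 39.1 and 83.7 CPM (lowest, median, highest) in SAL–SAL, 30.1, 64.5 and 97.6 in SAL–LPS, 36.4, 59.1 and 89.9 in MOR–SAL and 6.89, 37.4 and 78.1 in MOR–LPS. The SAL–SAL median was exceeded in 9 of 11 SAL–LPS libraries, and 13 of 14 MOR–LPS libraries were below the MOR–SAL median. The LPS log2FC was 0.90 ± 0.33 after saline and −0.79 ± 0.26 after morphine (interaction log2FC −1.70 ± 0.43, adjusted p = 0.0156, and 0.109 within litters). Penk had lowest, median and highest values of 1.82, 46.7 and 97.5 CPM in SAL–SAL, 33.2, 74.3 and 522 in SAL–LPS, 31.1, 62 and 155 in MOR–SAL and 17.3, 60.0 and 97.1 in MOR–LPS. SAL–LPS library 10-0 stood at 522 CPM, and the interaction of Penk (interaction log2FC −1.91 ± 0.54, adjusted p = 0.0301, and 0.477 within litters) lost its call without it (adjusted p = 0.0969), as it did without library 1-2 (0.057).

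The remaining receptors gave −0.92 ± 0.31 (adjusted p = 0.0756) for Oprm1, the mu receptor at which morphine acts, −0.94 ± 0.29 (adjusted p = 0.0544) for the nociceptin receptor Oprl1 and −0.25 ± 0.70 (adjusted p = 0.958) for the delta receptor Oprd1. Among the precursors, the values were −4.16 ± 1.35 (adjusted p = 0.065) for Pomc, −2.18 ± 0.80 (adjusted p = 0.118) for Pdyn and −0.71 ± 0.60 (adjusted p = 0.648) for Pnoc. After morphine, LPS lowered Oprm1 by the test (log2FC −0.71, adjusted p = 0.0211), and after saline its log2FC was 0.21 (0.804). Without the 12 libraries of high oligodendrocyte markers the list median was −1.48, and Oprk1 (log2FC −1.36, adjusted p = 0.141) and Penk (−2.23, 0.0752) were not called. Without litter 10 they were not called either (−1.20, 0.111 for Oprk1 and −1.11, 0.211 for Penk). Libraries 10-1 and 10-3 were also the lowest of SAL–SAL in the mean log2 CPM of this list, at 1.88 and 1.68 against 3.42 to 4.75 in the other 7. Without this pair alone the list median was −1.11, and Oprk1 was called (−1.38, 0.0467) and Penk was not (−1.62, 0.0675).

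Hypothalamic neuropeptides had a median interaction of −0.73, with 9 of 25 positive and 16 negative, and 2 were called: Penk, above, and Cck, the precursor of cholecystokinin, with the opposite sign. For Cck the values ran (lowest, median, highest) 3.67, 27.6 and 51.9 CPM in SAL–SAL, 0, 9.76 and 31.6 in SAL–LPS, 0.498, 13 and 30.6 in MOR–SAL and 5.39, 37.5 and 90.1 in MOR–LPS. The LPS log2FC of Cck was −1.40 ± 0.54 after saline and 1.52 ± 0.48 after morphine (interaction log2FC 2.93 ± 0.72, adjusted p = 0.0142, and 0.109 within litters), and without libraries 10-1 and 10-3 the interaction was not called (log2FC 2.49, adjusted p = 0.0566), nor without litter 10 (2.50, 0.0802). The feeding peptides Agrp (0.62 ± 0.99, adjusted p = 0.868), Npy (0.28 ± 0.92, adjusted p = 0.973) and Cartpt (0.20 ± 0.98, adjusted p = 0.999) and the stress peptide Crh (0.19 ± 1.20, adjusted p = 1) were not called. Their levels varied widely between libraries of 1 group, as these SE show.

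Of 24 receptors for appetite, metabolic and steroid hormones, Igf1r, the insulin-like growth factor 1 receptor, and Hcrtr2, an orexin receptor, were called with opposite signs (list median −0.30). The interaction was 1.13 ± 0.32 for Igf1r (adjusted p = 0.0336, and 0.371 within litters) and −1.77 ± 0.53 for Hcrtr2 (0.0438, and 0.101 within litters). Both calls were near the threshold: Hcrtr2 was called in 33 and Igf1r in 54 of 65 fits that left out a library or a litter, and the highest adjusted p from leaving out 1 library were 0.137 (without 1-0) and 0.133 (without 10-3). Neither was called without 10-1 and 10-3 (log2FC −1.48, adjusted p = 0.128 for Hcrtr2 and 0.57, 0.374 for Igf1r) or without the 12 libraries of high oligodendrocyte markers (−1.63, 0.100 and 1.10, 0.111). Hypothalamic transcription factors had 0 calls among 20 in edgeR and 0 in DESeq2, with 0 at an unadjusted p under 0.05 (median −0.58). The 2 with the smallest p were Foxb1, a marker of the mammillary region (2.54 ± 1.36, adjusted p = 0.354), and Isl1, expressed in arcuate neurons (−1.94 ± 1.18, 0.443).

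Glutamate receptor subunits had calls of both signs, with 4 of 22 positive (1.88% of all genes) and 1, Grik3, negative (0.487% of all genes, list median 0.13). The NMDA receptor subunit Grin2c was the largest. Levels of Grin2c, again as lowest, median and highest, were 0.355, 35.4 and 278 CPM in SAL–SAL, 1.59, 13.9 and 37.5 in SAL–LPS, 0, 2.83 and 18.1 in MOR–SAL and 0.128, 11.3 and 36.2 in MOR–LPS. SAL–SAL reached 278 CPM in library 10-3, and 13 of 14 MOR–LPS libraries were above the MOR–SAL median (interaction log2FC 3.79 ± 0.83, adjusted p = 0.0085, and 0.0381 within litters). For the NMDA subunit Grin2b the LPS log2FC was −0.70 ± 0.24 after saline and 0.60 ± 0.20 after morphine (interaction log2FC 1.30 ± 0.31, adjusted p = 0.0127, and 0.156 within litters). Grin2a was called too (1.66 ± 0.42, adjusted p = 0.0168, and 0.301 within litters).

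GABA receptor subunits had 3 positive calls and 1 negative among 16 (1.88% and 0.487% of all genes, list median −0.15). The GABA-A subunit Gabra4 had interaction log2FC 2.18 ± 0.54, adjusted p = 0.0147, and 0.257 within litters, and Gabrg3 had interaction log2FC −1.08 ± 0.29, adjusted p = 0.0238, and 0.223 within litters. Gabbr2 and Gabbr1 form the GABA-B receptor. Their values were 0.94 ± 0.26 (adjusted p = 0.0251, and 0.287 within litters) and 0.54 ± 0.16 (0.0417, and 0.400 within litters). Gabrg3 measured 50.1, 98.2 and 155 CPM (lowest, median, highest) in SAL–SAL, 19.3, 108 and 169 in SAL–LPS, 55.4, 120.0 and 213 in MOR–SAL and 38.9, 57 and 104 in MOR–LPS. For Gabrg3 all 14 MOR–LPS libraries were below the MOR–SAL median.

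Most of the receptor calls depended on the 2 SAL–SAL libraries with high thalamic markers. Without 10-1 and 10-3 the adjusted p was 0.0561 for Grin2c (log2FC 2.63), 0.16 for Grin2b (0.77), 0.259 for Gabra4 (1.22), 0.237 for Gabbr2 (0.58) and 0.143 for Gabbr1 (0.45). Grik3 (0.0159) and Gabrg3 (0.0486) kept their calls. Without the 12 libraries of high oligodendrocyte markers the calls of Grin2c (log2FC 3.37, adjusted p = 0.0522), Gabrg3 (−1.14, 0.109) and Gabbr1 (0.68, 0.0527) were lost. Grin2b (1.66, 0.00424), Gabra4 (2.71, 0.0112) and Gabbr2 (1.24, 0.0197) were called there with larger log2FC. Leaving out library 10-1 alone ended the call of Gabbr2 (0.0775), and Gabbr1 was called in 35 of 65 fits that left out a library or a litter.

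Lists of other processes had 0 called genes in edgeR. Of 21 immediate early genes, whose transcripts rise within minutes of neuronal activity, 1 had an unadjusted p under 0.05 (DESeq2 called 1, list median 0.27). The smallest p were those of Jun (1.39 ± 0.45, adjusted p = 0.0671) and Arc (1.30 ± 0.68, 0.339). Of 17 circadian clock genes, 7 had an unadjusted p under 0.05 (DESeq2 called 1, median 0.52, 15 positive), with Ciart at 1.03 ± 0.32 (0.0543) and Per1, also a glucocorticoid target, at 0.71 ± 0.25 (0.095). Of 12 heat shock and chaperone genes, 0 had an unadjusted p under 0.05 (DESeq2 called 0, median −0.06), with Hspa8 at −0.59 ± 0.31 (0.337) and Dnaja1 at −0.24 ± 0.20 (0.628).

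Genes of the respiratory chain and of ribosomes leaned to the negative side without a call. Of 75 nuclear-encoded oxidative phosphorylation subunits, 59 were negative and 3 had an unadjusted p under 0.05 (DESeq2 called 0, median −0.23). Sdha, a subunit of complex II, had −0.61 ± 0.22 (0.11), and Cox6b1, of complex IV, −0.95 ± 0.39 (0.178). Of 91 cytosolic ribosomal protein genes, 65 were negative and 6 had an unadjusted p under 0.05 (DESeq2 called 0, median −0.24), with Rps15a at −0.76 ± 0.29 (0.138) and Rps20 at −1.04 ± 0.43 (0.178). Ribosomal genes have many near-identical pseudogenes, so their counts are uncertain. The 21 genes that the study names for RNA, which it chose on these samples and which are therefore no independent evidence, held 11 positive calls (median 0.95): Sort1, Fryl, Il6ra, Grin2c, Sbf1, Lamb1, Slc27a1, Arid5a, Mgll, Src and Olfml2b.

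**Figure D4:**
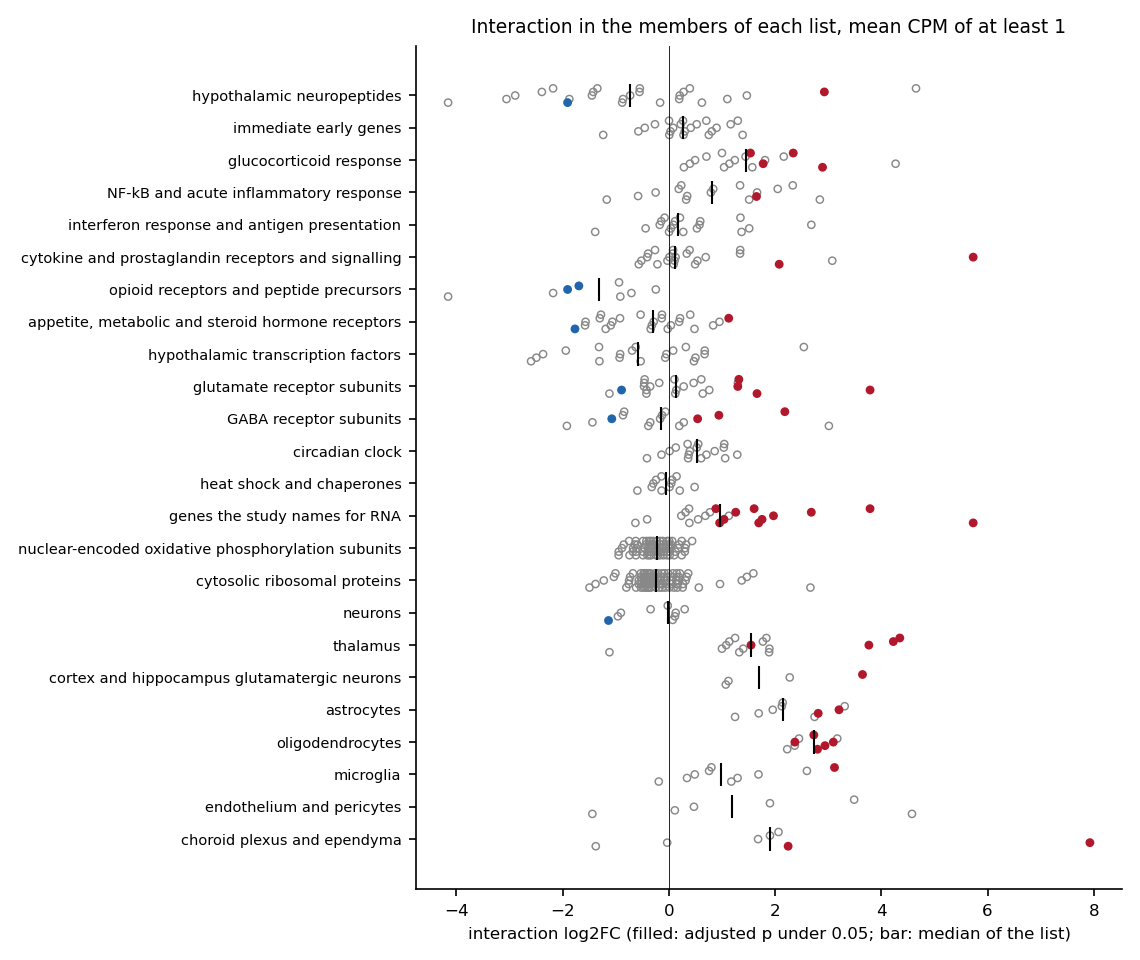
Interaction log2FC of the members of each gene list with a mean of at least 1 CPM, with called members filled (red positive, blue negative) and the list median as a bar. Glucocorticoid response genes are positive for 17 of 17 members with a median of 1.44, and opioid receptors and precursors are negative for 8 of 8 with a median of −1.32.

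The medians of the thalamic, cortical, astrocyte, oligodendrocyte and choroid plexus lists, from 1.55 to 2.73, were above that of every pathway list (the highest was 1.44). Oligodendrocyte genes were positive for 9 of 9 with a median of 2.73, and the myelin genes Mobp, Mbp, Mog and Mag were among those called. Astrocyte genes were positive for 9 of 9 (median 2.14), with Fgfr3 and Aldh1l1 called. For Fgfr3 the values ran (lowest, median, highest) 2.58, 14.5 and 319 CPM in SAL–SAL, 8.63, 24.1 and 147 in SAL–LPS, 1.36, 13.5 and 28.7 in MOR–SAL and 5.93, 51.6 and 427 in MOR–LPS. The interaction of Fgfr3 was 2.81 ± 0.78 (adjusted p = 0.0283, and 0.673 within litters), and it was not called without library 4-1 (0.0666), 9-4 (0.0538) or 14-4 (0.0527). Within litters 0 genes of either list were called.

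Microglial genes had 1 call among 10, Csf1r (3.10 ± 0.67, adjusted p = 0.0085), which was not called within litters. The list median was 0.99. Endothelial and pericyte genes had 0 calls among 6 in edgeR and 0 in DESeq2, with 3 of the 6 at an unadjusted p under 0.05, and Tek, the angiopoietin receptor, had 0.11 ± 0.36 (0.971). Of 7 choroid plexus and ependyma genes, Ttr and Enpp2 were called. Enpp2, which makes lysophosphatidic acid and is also made by oligodendrocytes, had 2.24 ± 0.62 (adjusted p = 0.0268, and 0.587 within litters) and was not called without library 4-1 (0.0847) or 14-4 (0.0571). Fgfr3 and Enpp2 turned to −0.53 and −0.46 without the 12 libraries of high oligodendrocyte markers.

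Thalamic markers had 4 positive calls among 15 (Plekhg1, Prkcd, Rora and Tnnt1, against 1.88% of all genes, median 1.55), none of them called within litters. The most abundant, Ntng1, had 1.40 ± 0.49 (0.095). Levels of Ntng1, again as lowest, median and highest, were 69.3, 254 and 1205 CPM in SAL–SAL, 37.3, 114 and 245 in SAL–LPS, 62.4, 123 and 304 in MOR–SAL and 10.0, 115 and 248 in MOR–LPS. LPS after saline lowered 5 of the 15 by the test (0.353% of all genes, median −1.71), and after morphine 0 were called (median −0.13). Of 4 markers of cortical and hippocampal glutamatergic neurons, LPS after morphine raised 3 by the test (4.02% of all genes). Among the 4, Slc17a7, the vesicular glutamate transporter VGLUT1, had a called interaction (interaction log2FC 3.63 ± 1.11, adjusted p = 0.0489). Within litters its value was larger (log2FC 6.06, adjusted p = 0.0381). It was called in 23 of 65 fits that left out a library or a litter. The call was lost without 10-1 and 10-3 (log2FC 2.80, adjusted p = 0.173) or the 12 high-oligodendrocyte libraries (3.11, 0.138). Of 9 neuronal markers Gad2, the GABA-synthesizing enzyme, was called (−1.15 ± 0.35, adjusted p = 0.0434) but not within litters, and Meg3, the most abundant, had 0.07 ± 0.24 (0.976). The part of the marker levels in the interaction of other genes was not tested beyond covariates and left-out libraries. Cortical markers entered neither of these. With thalamic and oligodendrocyte levels as covariates 213 of 18703 genes were called (1.14%), among them Slc1a2 (2.09, adjusted p = 0.0046), Bmp1 (2.42, 0.0046), Il1rap (1.47, 0.0207), Map7d1 (1.11, 0.0108), Smyd3 (−1.01, 0.0183) and Ccdc82 (−1.54, 0.0101). Of these 213 genes 132 were also called without covariates, and 21 of the 44 called genes named here lost the call. The value moved by over 1.5 times for Nfkbia (0.58, 0.578), Fgfr3 (0.84, 0.422), Enpp2 (0.31, 0.808), Klf9 (0.99, 0.0813), Grik3 (−0.54, 0.192) and Gabbr2 (0.54, 0.193). The other 15 were Rgs9, Adam4, Serpina9, Fndc3a, Cck, Penk, Hif3a, Zbtb16, Oprk1, Igf1r, Hcrtr2, Gabra4, Gabrg3, Gabbr1 and Slc17a7, with adjusted p from 0.0506 to 0.22. With these covariates and litter together, 0 genes were called and 2712 of all genes tested had an unadjusted p under 0.05.

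The interaction was called for 444 genes in females alone (25 libraries) and for 0 in males alone (23 libraries, edgeR, 1364 at an unadjusted p under 0.05), counting genes with a mean of at least 1 CPM. The test of the difference between the sexes called 6 of 18703 genes (0.0321%) in edgeR and 40 in DESeq2, so that the 2 counts do not by themselves show a difference. Litters were nearly all of 1 sex, so sex and litter cannot be told apart. The 6 genes, named after their values were seen, were Epb4.1l2, Fnbp1, Kif13b, Pcdh20, Srebf1 and Tmem119. Srebf1, a transcription factor of lipid synthesis, had an interaction of 3.15 in females (adjusted p = 0.000478) and 0.09 in males (1), with a male minus female difference of −3.02 (adjusted p = 0.0384). Fnbp1, which bends membranes in endocytosis, had 1.34 in females (adjusted p = 0.00266) and −0.37 in males (0.631), and the kinesin Kif13b 1.53 in females (adjusted p = 0.0156) and −0.66 in males (0.457). Among other genes described above, Slc1a2 had 3.02 in females (adjusted p = 0.000328) and 2.13 in males (0.297), Bmp1 2.92 in females (adjusted p = 0.00212) and 1.93 in males (0.297) and Smyd3 −1.31 in females (adjusted p = 0.015) and −1.18 in males (0.297). Values farther apart were those of Hif3a, with 5.73 in females (adjusted p = 0.00055) and 0.30 in males (1), Zbtb16, with 3.11 in females (adjusted p = 0.00534) and 0.64 in males (0.836), Ddit4, with 3.54 in females (adjusted p = 0.0132) and 0.95 in males (0.785), and Oprk1, with −2.80 in females (adjusted p = 0.00334) and −0.56 in males (0.825). The test of the difference gave adjusted p of 0.0545, 0.297, 0.415 and 0.224 for these 4, named after their values were seen. Of the 12 libraries of high oligodendrocyte markers 11 were female and 1 male, and without them Hif3a, Zbtb16 and Ddit4 had the lower values given above. The part of the marker levels in the difference between the sexes was not tested.

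The same contrast was fitted in the other regions of the study. The striatum (54 libraries) had 0 of 14195 genes with a mean of at least 1 CPM (0%, edgeR, 1817 at an unadjusted p under 0.05), the hippocampus (53 libraries) had 53 of 14136 (0.375%) and the prefrontal cortex (PFC, 45 libraries) 26 of 14178 (0.183%). Over all genes tested, genes below 1 CPM included, 2 were called in striatum, 515 in hippocampus and 283 in PFC, against 1108 in hypothalamus. A joint fit tested the hypothalamic interaction against the striatal one and called 240 of 14859 genes (1.62%). Of the 442 hypothalamic genes, 399 were in the joint fit and 136 of these differed between the regions. The 442 were chosen on the hypothalamic interaction, which enters this difference, so a share above that of all genes is built in. The same holds for the genes named next. Arap2 had 0.32 in striatum, 0.03 in hippocampus and 0.49 in PFC against 2.74 in hypothalamus, and the hypothalamus minus striatum difference was 2.49 (adjusted p = 0.00761). The corresponding difference was 2.63 for Bmp1 (0.00281), 1.37 for Sort1 (0.00363), 0.99 for Map7d1 (0.0371) and −1.82 for Ccdc82 (0.00752). Slc1a2 missed the threshold (1.96, 0.0564), with 0.70 in striatum, 0.59 in hippocampus and 1.10 in PFC.

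Nfkbia had 1.45 in striatum, −0.32 in hippocampus and 0.98 in PFC (adjusted p = 0.986 for the hypothalamus minus striatum difference), and Klf9 had 0.21, −0.26 and 0.16 (0.0662). Oprk1 had 0.03, −0.33 and −0.70 (0.133). The animals are partly shared between regions, which the joint fit did not model.

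**Figure D5:**
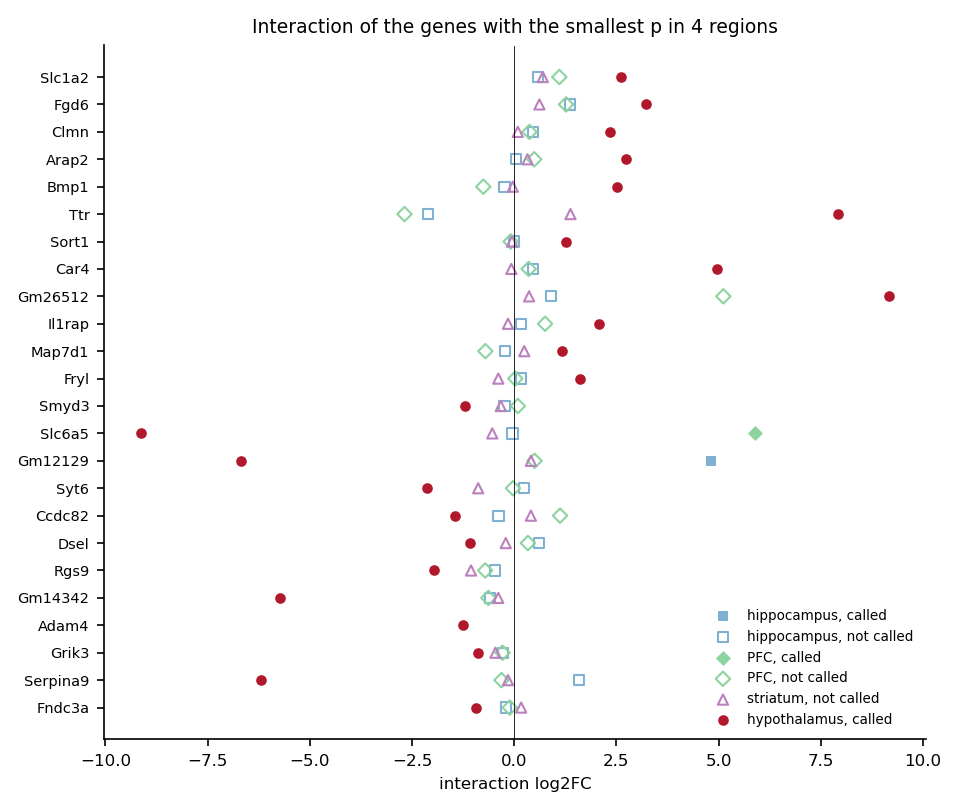
Interaction log2FC of the 12 genes of each sign with the smallest p, in the hypothalamus, striatum, hippocampus and PFC, with filled symbols for called values and no error bars. Bmp1, Sort1 and Arap2 lie above 1 in the hypothalamus and between −0.76 and 0.49 in the other regions. Not all genes do so: Fgd6 is at 1.36 in hippocampus and 1.27 in PFC, and Slc1a2 at 1.10 in PFC. Slc6a5 in PFC (5.89) and Gm12129 in hippocampus (4.81), both below 1 CPM there, are called with the opposite sign.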

How the data were processed

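Nuclear RNA of sorted NeuN+ nuclei was sequenced by a modified Smart-seq3 protocol. Per the study's methods, the authors trimmed reads with Trim Galore 0.6.7, aligned them to mm10 with STAR 2.7.10a and deposited counts of reads per gene (GENCODE vM25 annotation, checked with HTSeq 0.12.4), whose strand setting is not given in the sources used here. The deposited counts, 46403 genes by 51 hypothalamic libraries, were used as they are, and the authors' CPM tables were not used. Libraries below 0.5 times the median total of 5543589 were dropped (SAL–SAL 1-1 and 4-3, SAL–LPS 1-4).

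Genes with a total count above 10 were fitted in R 4.3.3 with edgeR 4.0.16 (TMM, quasi-likelihood F-test, terms for the 4 conditions and sex), with Benjamini-Hochberg adjustment and calls at an adjusted p under 0.05. The study used DESeq2 1.40.2 with the same terms. Genes with a mean of at least 1 CPM over the fitted libraries are described, and CPM of single libraries were computed from the counts with TMM. Where nothing else is stated, p-values are from this fit. Named genes were the 12 of each sign with the smallest interaction p, in each list up to 4 called members or else the 2 with the smallest p, and in each marker list the most abundant member, of which some are not reported here. The members, lists and tests were chosen with earlier results of these data known.

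The study's supplement gives the replicate number as litter and animal, so the litter block pairs LPS and saline animals of 1 litter. Deviations from group means of 35 same-litter pairs had a median correlation of 0.00903, against −0.00741 in 111 pairs of different litters of the same exposure and sex. Alternatives were DESeq2 1.42.0, limma-voom (limma 3.58.1), other filters and scalings, sums over litters, the sexes alone, marker covariates and left-out libraries or litters. On simulated counts with 200 genes changed by a log2FC of 2, the interaction test of edgeR recovered 60.5% with 237 false calls among 27930 genes, 7 of them with a mean of at least 1 CPM. The litter block recovered 58% with 7 false calls. The simulated counts held no litter effect and no shared differences in marker levels. They therefore do not measure how the tests behave where these are present. Positions come from GENCODE M21 and promoters from RefSeq (GRCm38.p6).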

Additional observations from a re-analysis of the deposited data

Results flagged for a closer look

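The LPS response differed between the exposures, by the test of the interaction itself, for 44 of 61 named genes. Most were named for a small interaction p, so this share is largely set by the choice. Among all genes at 1 CPM or more, 442 of 18703 were called (2.36%). The values of the 44 are interaction log2FC. Those also called within litters were Slc1a2 (2.62), Fgd6 (3.23), Clmn (2.33), Arap2 (2.74), Bmp1 (2.51), Sort1 (1.26), Car4 (4.96), Il1rap (2.08), Map7d1 (1.18), Grin2c (3.79), Slc17a7 (3.63), Smyd3 (−1.20), Gm12129 (−6.69) and Ccdc82 (−1.44). Of the other genes with the smallest p, the values were Ttr (7.93), Gm26512 (9.15), Fryl (1.60), Slc6a5 (−9.12), Syt6 (−2.13), Dsel (−1.09), Rgs9 (−1.97), Gm14342 (−5.74), Adam4 (−1.26), Grik3 (−0.89), Serpina9 (−6.21) and Fndc3a (−0.95), and the fitted values of Ttr, Gm26512, Slc6a5, Gm12129, Gm14342 and Serpina9 come from groups with libraries at 0 and set no bound on the fold. Receptor and signalling genes had Il6ra (5.73), Nfkbia (1.63), Igf1r (1.13), Hcrtr2 (−1.77), Oprk1 (−1.70), Penk (−1.91), Cck (2.93), Grin2b (1.30), Gabra4 (2.18), Gabrg3 (−1.08), Gabbr2 (0.94) and Gabbr1 (0.54). Glucocorticoid targets had Klf9 (1.53), Ddit4 (2.34), Hif3a (2.89) and Zbtb16 (1.77), and glial and choroid plexus markers had Fgfr3 (2.81) and Enpp2 (2.24).

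The interaction differed between hypothalamus and striatum for 15 of these genes, against 240 of 14859 genes in the joint fit (1.62%). They were chosen on the hypothalamic value, which enters the difference, so a larger share is built in. The hypothalamus minus striatum log2FC were those of Arap2 (2.49), Bmp1 (2.63), Sort1 (1.37), Car4 (5.10), Gm26512 (9.44), Map7d1 (0.99), Fryl (2.04), Slc6a5 (−8.33), Ccdc82 (−1.82), Gm14342 (−5.49), Serpina9 (−6.15), Fndc3a (−1.08), Grin2c (4.81), Grin2b (1.94) and Gabra4 (2.92).

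In 8 of 61 SAL–SAL groups, the groups small enough for this test of 1 sample far from the rest, the extreme library lay beyond Dixon's limit, where chance gives about 1 in 20. Library 10-3, high in thalamic markers, was low for Penk (1.82 CPM), Rps20 (5.06 CPM), Syt6 (0 CPM) and Isl1 (0 CPM). Library 4-1, high in glial markers, was high for Ddit4 (36.3 CPM) and Zbtb16 (72.8 CPM). Library 1-3 was the lowest for Sort1 (119.8 CPM), and library 5-1 the highest for Gm14342 (0.258 CPM).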

How the results depend on the processing

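The count of called genes with a mean of at least 1 CPM (442, and 1108 over all genes tested) fell to 266 (275 over all) with edgeR's filterByExpr, 274 (274) with only genes of at least 1 CPM entering the fit, 102 (115, of which 48 positive) in limma-voom with a litter correlation, 32 (48) with counts summed over litters and 0 (0) in males alone. DESeq2 called 513 (534) and females alone 444 (542). With litter as replicate block the count was 22 (24). Alternatives chosen after seeing the data gave 213 (576) with thalamic and oligodendrocyte covariates, 0 (0) with these and the litter block, 288 without SAL–SAL libraries 10-1 and 10-3 and 301 (486) without the 12 libraries of high oligodendrocyte markers. Leaving out 1 library or litter gave 216 (without litter 10) to 647 (without litter 1), and 589 to 1318 over all genes, and without litter 9 the counts were 252 and 695. The sex difference was called for 40 genes in DESeq2 and 3 with filterByExpr against 6, and the difference from striatum for 311 in DESeq2 and 148 with filterByExpr against 240. In 0 libraries did the sex-linked genes point wholly to the other sex (more Y-linked than Xist CPM in a female, or the reverse), so the planned fit without such libraries gave no value. Without the 4 libraries that departed by 1 of these 2 measures the counts were 480 and 1026.

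Directions turned for called genes with large values, Fgfr3 and Enpp2, and for genes without a call: Arc in males (−0.11), Per1 in males (−0.0064), Isl1 in limma-voom (0.18), Ntng1 with the thalamic covariate (−0.21), Meg3 in males (−0.078), with the litter block (−0.054) and without 10-1 and 10-3 (−0.24), Tek in females (−0.076), with low-depth libraries kept (−0.039) and without 10-1 and 10-3 (−0.14), Fgfr3 (−0.53) and Enpp2 (−0.46) without the high-oligodendrocyte libraries, and Enpp2 (−0.051) with the litter block and covariates. Leaving out 1 library or litter ranged from −0.15 to 0.20 for Meg3 and −0.059 to 0.27 for Tek. The causes were not tested. Over the 44 called named genes, 22 alternatives gave 670 values on the same side of the threshold, 295 past it no longer and 3 of the other sign, and 65 left-out fits gave 2682 and 178 with 0 of the other sign. The litter block ended 30 of the 44 calls, filterByExpr 10 and the filter of at least 1 CPM before the fit 9. Depth limits genes near 1 CPM, about 3 counts in the shallowest library.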

Other observations

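Some genes responded to LPS after morphine without a called interaction, and are named after their values were seen. Gfap, the intermediate filament of astrocytes, had an LPS log2FC of 1.91 after saline (adjusted p = 0.236) and 5.22 after morphine (2.68e-05), and Cdkn1a, a cell cycle inhibitor induced by glucocorticoids, had 1.70 after saline (adjusted p = 0.124) and 2.701 after morphine (0.000331). Vip, a peptide of suprachiasmatic neurons, had 0.09 after saline (adjusted p = 1) and 4.74 after morphine (0.00361), and C1qb, a complement gene of microglia, 1.68 after saline (adjusted p = 0.402) and 3.36 after morphine (0.00829). Their interactions were 3.31, 1.00, 4.65 and 1.69, with adjusted p of 0.0528, 0.537, 0.0541 and 0.532 in edgeR. The glial genes Gfap and C1qb moved with the marker levels given above, whose part was not tested.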
